A study of Panax japonicus with 15 samples.

Results

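The comparison described here sets the Y period of fruit colour against the B period in Panax japonicus, a relative of ginseng. Its members are 6 of the 15 libraries of the study, Y replicates 1, 2 and 3 and B replicates 1, 2 and 3, chosen by their titles. Each library is RNA of pericarp, the fruit wall that remains once the seed has been cut out, and the study asked how gene expression goes with fruit colour over 5 colour periods lettered B, G, P, R and Y. Treatment, genotype and plant age are not labelled beyond the period, and the letters are neither spelled out nor ordered, so "higher" and "lower" below never mean earlier or later. The 3 libraries of a period are called biological replicates, with nothing on how they relate to plants, so a p-value here reflects how these libraries spread and no more. The R libraries were placed on the scale from B to Y, and the G and P libraries served for the estimate of spread and as reference points.

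The colour of a ripening fruit wall generally depends on the breakdown of chlorophyll in plastids and on carotenoids and anthocyanins, which are made by separate pathways. Carotenoids are plastid isoprenoids that colour tissue yellow to red, and anthocyanins are flavonoids held in the vacuole that colour it red to purple. In many fruits both the breakdown and the synthesis are set largely by transcript levels of the enzymes and their regulators, which is why transcript levels are measured beside pigments. The deposited table names its features by numbered clusters and does not pair them with genes, so none of these pathways can be followed here by name and the labelled tissue could not be checked against marker genes. The features are called transcript clusters, they are described by direction, size and abundance, and no function is given for any of them.

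Values were deposited as TPM, a measure per transcript length that adds up to the same sum in every library, so read depth is unknown. Tests were run on the 81765 of 462117 transcript clusters that reached 1 TPM in 3 or more of the 6 libraries. The tested clusters held 87.1% ± 0.26 of TPM in the Y libraries and 79.7% ± 4.04 in the B libraries (SD, n = 3 each), and B replicate 1 was highest among the B libraries at 84.0%. The difference of 7.38 percentage points gave p = 0.1 in an exact two-sided permutation test, the smallest p that 3 against 3 allows. The number of clusters above 0 TPM was 172196 ± 13157 in Y and 168123 ± 7461 in B (SD, n = 3 each; exact permutation p = 0.7, two-sided). At 1 TPM or more the order was the other way, with 87955 ± 2974 in Y and 96597 ± 2208 in B (SD, n = 3 each; exact permutation p = 0.1, two-sided, the smallest possible). The 100 most abundant clusters of each library held 9.46% ± 0.28 of TPM in Y and 8.72% ± 0.35 in B (SD, n = 3 each; exact permutation p = 0.1, two-sided).

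Y and B differed for 6184 of the 81765 transcript clusters tested, or 7.56%, of which 3483 were higher in Y (4.26% of those tested) and 2701 were lower in Y (3.3%). These calls come from limma on log2(TPM + 1) with Benjamini-Hochberg adjustment over all clusters tested, at an adjusted p under 0.05. Over all tested clusters the median difference was -0.01 on the log2(TPM + 1) scale, with quartiles of -0.54 and 0.53, so the bulk of clusters was balanced around 0. At least a 2-fold difference in mean was measured for 10519 tested clusters in the direction of Y and for 9923 in the direction of B, whether called or not, so most clusters with such a difference did not pass the test. In bulk tissue a change in the number of cells of a type and a change in RNA per cell cannot be told apart.

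Most of the called differences were between 2-fold and 4-fold. On the log2(TPM + 1) scale, differences reached 2-fold for 3224 of the clusters higher in Y and 2587 of those lower in Y, 4-fold for 1409 and 1084, and 16-fold for 150 and 78. These counts include clusters listed at 0 throughout the lower period, whose difference is set by the pseudocount. Without them the counts were 2592 and 2067 at 2-fold, 1010 and 781 at 4-fold, and 78 and 25 at 16-fold. The median difference was 1.82 for the higher clusters (quartiles 1.37 and 2.45) and -1.80 for the lower clusters (quartiles -2.36 and -1.42). Without clusters listed at 0 throughout the lower period the medians were 1.73 and -1.74. Among called clusters not listed at 0 throughout a period, the most extreme differences were 8.08, at means of 469 TPM in Y and 0.783 TPM in B, and -6.65, at 0.857 TPM in Y and 154 TPM in B. The Y and B libraries did not overlap for 6159 of the 6184 called clusters, against 27% of all tested clusters, 13.5% in each direction. The test therefore took a subset of the many clusters whose libraries separate.

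**Figure D1:**
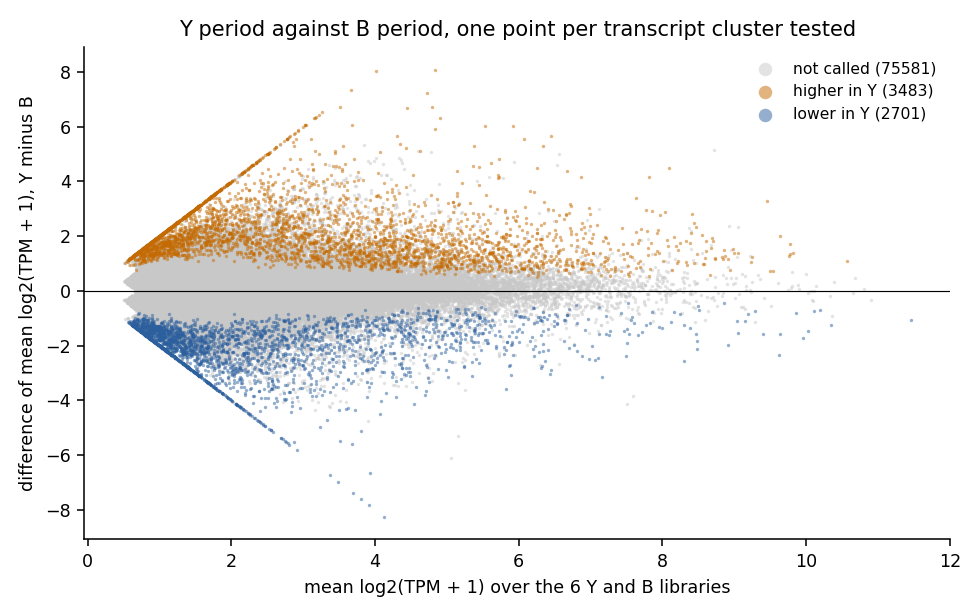
Difference of mean log2(TPM + 1), Y minus B (vertical axis), against mean log2(TPM + 1) over the 6 libraries (horizontal axis), with 1 point for each of the 81765 transcript clusters tested and colour for the 3483 called higher and 2701 called lower in Y. The straight edges at left are clusters listed at 0 throughout one period, and at high levels the called points lie more often above 0 than below it.

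The typical cluster higher in Y was more abundant than the typical cluster lower in Y. The median of the period means was 14.8 TPM in Y and 2.19 TPM in B for the higher clusters, and 0.630 TPM in Y and 7.46 TPM in B for the lower clusters. For the same clusters the median of the R means was 9.69 TPM and 2.43 TPM, between the other 2 values each time. In each Y library all 3483 higher clusters were above 0 TPM, and in each B library all 2701 lower clusters were. The Y and B levels and this detection come from the libraries that chose the clusters, so they describe the choice and carry no test. Of the higher clusters, 1705 had at least 1 TPM in all 6 libraries, 49.0%, and of the lower ones 948 did, 35.1%. The share over all tested clusters was not taken, so nothing is read from these counts.

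The balance of higher to lower clusters moved with abundance. Among clusters with a mean of at least 100 TPM over the 6 libraries, 319 of 999 were called, or 31.9%, with 233 higher and 86 lower in Y, so that 73.0% of the calls were higher. From 10 to 100 TPM the calls were 1397 higher and 706 lower, 14% of 14980 tested. From 1 to 10 TPM they were even, at 1700 and 1718, which is 5.67% of 60316 tested. Under 1 TPM more were lower than higher, 191 against 153, or 6.29% of 5470 tested. Since differences of low clusters are compressed on the log2(TPM + 1) scale, the shares of different classes are not compared with each other.

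Abundance also went with the middle of the distribution, called or not. The median difference over all tested clusters was 0.29 at 100 TPM or more, 0.12 from 10 to 100 TPM, -0.06 from 1 to 10 TPM and 0.01 under 1 TPM, each on the log2(TPM + 1) scale, Y minus B. The called differences had these sizes on the same scale, with clusters listed at 0 throughout the lower period included. At 100 TPM or more the median was 1.54 for higher and -1.47 for lower clusters, with 79 and 25 of them past 4-fold. From 10 to 100 TPM it was 1.68 and -1.83, with 509 and 312 past 4-fold, and from 1 to 10 TPM it was 1.98 and -1.90, with 821 and 747 past 4-fold. Under 1 TPM it was 1.32 and -1.30, with 0 past 4-fold in either direction, since a mean under 1 TPM cannot reach 4-fold on this scale. With median-ratio scaling the classes gave 233 higher and 85 lower at 100 TPM or more, 1391 and 689 from 10 to 100 TPM, 1546 and 1538 from 1 to 10 TPM, and 134 and 166 under 1 TPM. The only class whose balance turned was that from 1 to 10 TPM, where the counts were nearly equal on either scale.

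In terms of the RNA pool, the higher clusters held 17.1% ± 0.96 of all TPM in the Y libraries and 5.08% ± 0.85 in the B libraries (SD, n = 3 each). The lower clusters held 2.74% ± 0.23 in Y and 8.81% ± 0.10 in B (SD, n = 3 each). These shares describe clusters that the same libraries chose and carry no test. The R libraries, whose levels are no part of the Y minus B difference although their spread enters the pooled variance, held 13.4% ± 0.36 in the higher and 4.93% ± 0.23 in the lower clusters (SD, n = 3 each), between the Y and B values in both. Among the B libraries, replicate 1 held 6.06% in the higher clusters, against 4.63% in replicate 2 and 4.54% in replicate 3. In the lower clusters the B libraries were alike, at 8.87%, 8.86% and 8.69%. The 233 abundant higher clusters alone accounted for 8.99% ± 0.48 of TPM in Y, 2.87% ± 0.45 in B and 7.21% ± 0.24 in R, and the 86 abundant lower ones for 1.72% ± 0.19 in Y, 4.43% ± 0.23 in B and 2.86% ± 0.14 in R (SD, n = 3 each).

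**Figure D2:**
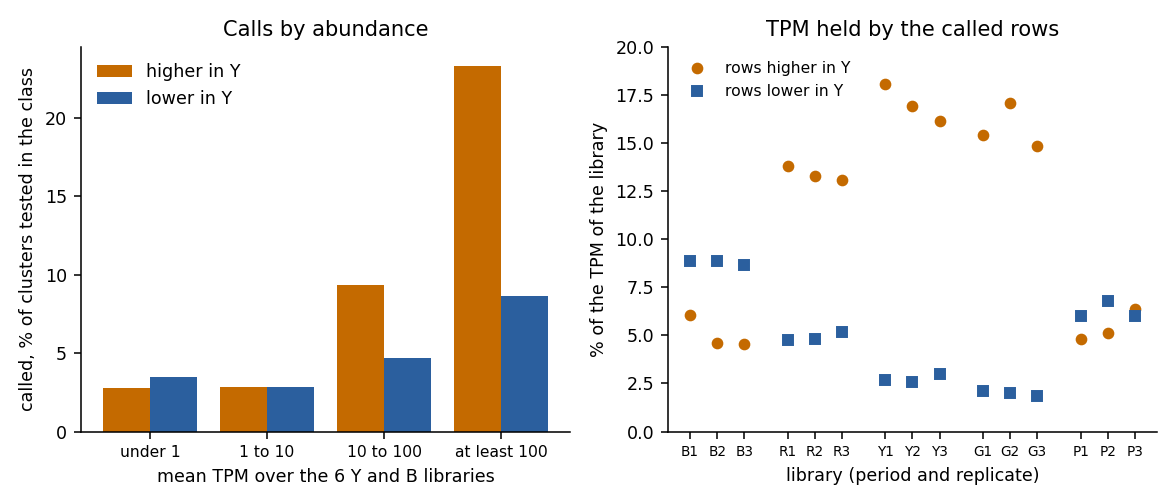
Left, bars give the share of tested transcript clusters called higher or lower in Y within each class of mean TPM, which reaches 233 higher and 86 lower of 999 at 100 TPM or more. Right, points give the percentage of the TPM of each library held by the 3483 higher (circles) and 2701 lower (squares) clusters; the R libraries lie between B and Y, and B1 lies above B2 and B3 in the higher clusters.

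The clusters at the extremes of the comparison were taken in each direction by size of the log2 difference among those reaching 1 TPM in each of the 6 libraries, and by the difference in mean TPM. Cluster-64249.185566 measured 570, 493 and 407 TPM in the Y libraries (replicates 1, 2 and 3) against 8.19, 3.82 and 8.46 TPM in the B libraries. Every Y library was thus far above every B library, and B replicate 1 was close to B replicate 3. The R libraries lay in between without overlap, at 179, 150.0 and 167 TPM. The difference of Y minus B was 6.02 ± 0.48 on the log2(TPM + 1) scale (SE; limma adjusted p = 1.18e-05), and R stood 4.47 above B (limma adjusted p = 0.000257) and 1.55 below Y (limma adjusted p = 0.302). Over the alternatives the Y minus B adjusted p ranged from 6.04e-07 to 0.00104 (limma). The G libraries were at the level of Y, with a mean of 523 ± 151 TPM, and the P libraries near B, with 15.8 ± 10.5 TPM (SD, n = 3 each).

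Cluster-64249.146080 had the largest excess in mean TPM in Y. It stood at 2391, 2672 and 1633 TPM in the Y libraries, and in Y replicate 2 it was the most abundant cluster of the library. In the B libraries it stood at 264, 285 and 148 TPM, with replicate 1 between the other 2. The R libraries, at 1871, 1235 and 1474 TPM, overlapped the lowest Y library and lay above all B libraries. On the log2(TPM + 1) scale R minus B was 2.75 (limma adjusted p = 0.0271) and Y minus R was 0.54 (limma adjusted p = 0.915). Y exceeded B by 3.29 ± 0.61 on the log2(TPM + 1) scale (SE; limma adjusted p = 0.00533, from 6.32e-05 to 0.0284 over the alternatives).

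Cluster-64249.131715 had the largest log2 difference in the direction of B among clusters measured in all 6 libraries. Its B libraries had 107, 66.8 and 67.8 TPM and its Y libraries 1.13, 2.89 and 4.39 TPM, in the order of the replicates. Here B replicate 1 was the library farthest from Y. The R libraries lay at 10.3, 9.06 and 7.98 TPM, above every Y library and below every B library. On the log2(TPM + 1) scale R minus B was -2.98 (limma adjusted p = 0.000851). Y minus R was -1.50 (limma adjusted p = 0.173), so the step from R to Y did not pass the test. Y was lower than B by a difference of -4.49 ± 0.38 on the log2(TPM + 1) scale (SE; limma adjusted p = 2.08e-05, from 9.90e-06 to 0.00397 over the alternatives).

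Cluster-64249.125422 was very abundant throughout and had the largest deficit in mean TPM in Y, with a modest fold. It stood at 4200, 3381 and 4769 TPM in the B libraries, where it was the most abundant cluster of each library, and at 1547, 1778 and 2667 TPM in the Y libraries. The R libraries, at 2597, 2382 and 3014 TPM, overlapped Y and lay below all B libraries. By test R differed from neither, at -0.62 for R minus B (limma adjusted p = 0.249) and -0.45 for Y minus R (limma adjusted p = 0.699). The difference of Y minus B was -1.07 ± 0.25 on the log2(TPM + 1) scale (SE; limma adjusted p = 0.0181). The call was lost without B replicate 3, Y replicate 1 or Y replicate 2 (limma adjusted p = 0.0779, 0.0860 and 0.0721), with a filter on mean TPM (limma adjusted p = 0.0857) and with no variance trend (limma adjusted p = 0.0568).

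**Figure D3:**
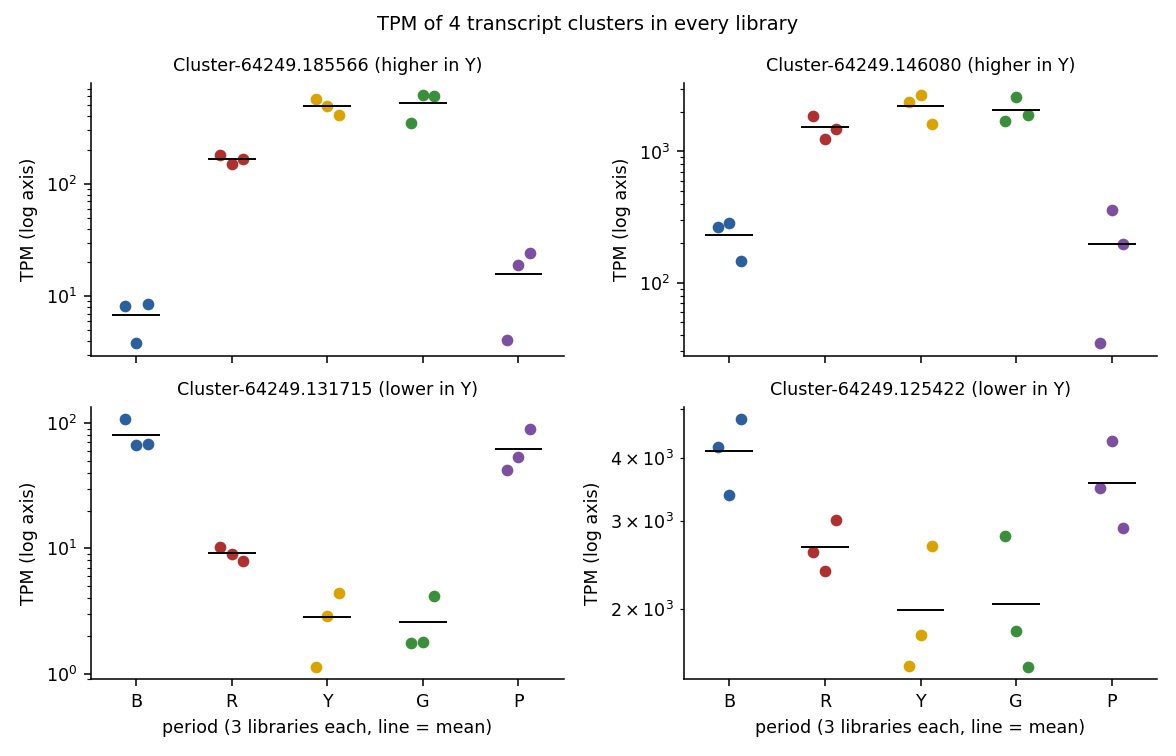
TPM on a log axis for 4 transcript clusters in all 15 libraries by period, with a point per library and a line at the period mean. In the upper panels the Y libraries lie above all B libraries (407 to 570 against 3.82 to 8.46 TPM for Cluster-64249.185566), in the lower panels they lie below all B libraries, and the R mean lies between the B and Y means in all 4.

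Some clusters were detected in one of the periods and listed at 0 throughout the other. Of the 3483 clusters higher in Y, 632 were listed at 0 in all 3 B libraries, or 18.1%, and of the 2701 lower in Y, 520 were listed at 0 in all 3 Y libraries, or 19.3%. Over all tested clusters 1061 were listed at 0 in all B libraries, or 1.30%, and 735 in all Y libraries, or 0.899%, and nothing is read from the contrast with those shares, since the calls rest on the same values. These were low-level clusters. The median mean was 4.20 TPM in Y for the first set and 3.75 TPM in B for the second, with 143 and 95 at 10 TPM or more, 3 and 6 at 100 TPM or more, and maxima of 273 and 319 TPM. No fold is given for any single one of them, since a 0 in a TPM table can also be a failed estimate. The counts by fold and the median differences above include them except where stated.

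The R libraries were mixed on these clusters. Of the 632 found in Y and not in B, 130 had at least 1 TPM in all 3 R libraries, 271 were above 0 in 1 or 2 R libraries and 156 were listed at 0 in all 3. Of the 520 found in B and not in Y, the corresponding numbers were 56, 280 and 142. The set listed at 0 in all 9 R, G and P libraries as well numbered 81 for Y and 65 for B. In these sets the libraries of other periods at 0 add no spread to the pooled estimate, so limma's estimate rests there in part on libraries without variation. The fit on the 6 Y and B libraries alone called 5682 clusters in all, of which 4247 were among the 6184.

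For the clusters that differed between Y and B, R sat nearer to Y than to B by its median position in both directions, though not for clusters lower in Y at 100 TPM or more or for clusters higher in Y under 1 TPM. The position of R was taken as the distance of the R mean from the B mean, divided by the distance of the Y mean from the B mean on the log2(TPM + 1) scale, so that 0 is the B mean and 1 is the Y mean. It is a description, since Y and B set the scale and chose the clusters, and it has no test. The median position was 0.716 over the clusters higher in Y (quartiles 0.437 and 0.911) and 0.640 over those lower in Y (quartiles 0.440 and 0.851). With positions over 0.667 counted as with Y, those under 0.333 as with B and the rest as between, R was with Y for 3197 of the 6184 clusters, or 51.7%, between for 1911, or 30.9%, and with B for 1076, or 17.4%. By limma calls of R against each period in the same fit (adjusted p under 0.05), R differed from B alone for 33.4%, from Y alone for 3.78%, from both for 0.21% and from neither for 62.6%, so for most clusters the place of R is not settled by a test.

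The places differed somewhat by direction. Among clusters higher in Y, R was with Y for 1926 (55.3%), between for 894 (25.7%) and with B for 663 (19.0%). Among clusters lower in Y it was with Y for 1271 (47.1%), between for 1017 (37.7%) and with B for 413 (15.3%). R lay past the Y mean for 588 of the higher and 225 of the lower clusters, and past the B mean, on the far side from Y, for 103 and 59. The 3 R libraries gave alike medians, at 0.749, 0.734 and 0.709 over the higher and 0.628, 0.655 and 0.620 over the lower clusters for R replicates 1, 2 and 3.

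**Figure D4:**
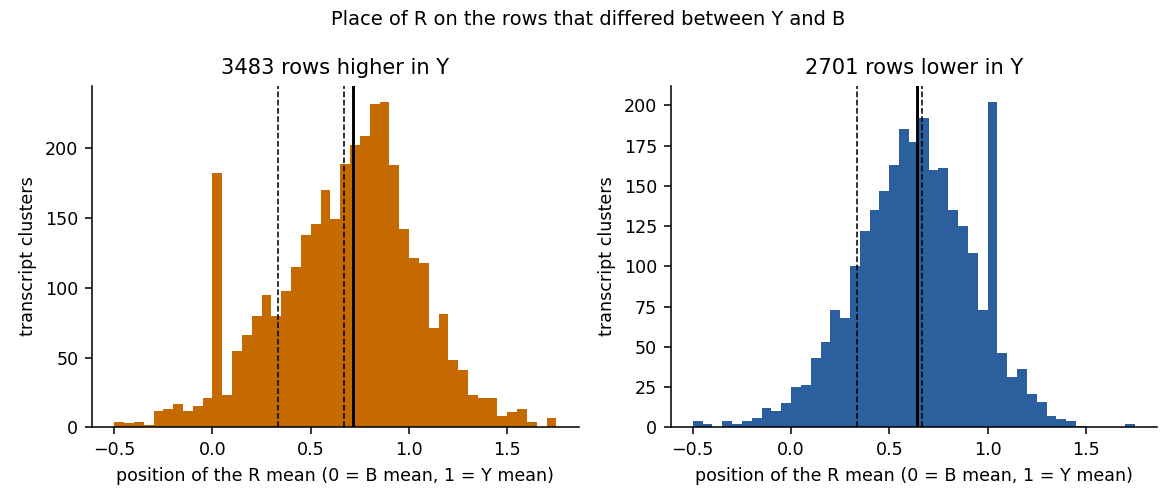
Number of transcript clusters by position of the R mean on the scale from the B mean (0) to the Y mean (1), for the 3483 clusters higher in Y (left) and the 2701 lower in Y (right); positions beyond the axis are gathered in the end bins. The solid lines mark the medians of 0.716 and 0.640 and the dashed lines the class limits of 0.333 and 0.667; the narrow peaks at 0 (left) and 1 (right) mostly hold clusters listed at 0 in R and in the lower period.

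Abundance changed the picture of R in opposite ways for the directions. Among higher clusters with a mean of at least 100 TPM, R was with Y for 172 of 233, between for 55 and with B for 6, with a median position of 0.813. From 10 to 100 TPM the median was 0.803 and R was with Y for 951 of 1397, from 1 to 10 TPM it was 0.610 with 764 of 1700, and under 1 TPM it was 0.361 with 39 of 153. Among lower clusters with a mean of at least 100 TPM, R was between for 54 of 86, with B for 20 and with Y for 12, with a median position of 0.452. From 10 to 100 TPM the median was 0.549 and R was with Y for 229 of 706, from 1 to 10 TPM it was 0.679 with 892 of 1718, and under 1 TPM it was 0.810 with 138 of 191. At the abundant end, then, R was at most of the Y level where Y was high and about midway where Y was low. In clusters of a few TPM the zeros of R weigh on this measure, since a 0 places R at B in the higher and at Y in the lower clusters.

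Single libraries give the same place in another way. All 3 R libraries lay past all 3 B libraries in the direction of Y for 2453 of the 3483 higher clusters, or 70.4%, and for 2026 of the 2701 lower ones. Over all tested clusters, R lay wholly above B for 9.91% and wholly below it for 11.5%. All 3 R libraries fell short of all 3 Y libraries, on the B side, for 1699 of the higher clusters, or 48.8%, and for 1224 of the lower ones, or 45.3%. Over all tested clusters, R lay wholly below Y for 10.4% and wholly above it for 8.43%. Because the called clusters were chosen for high or low values in the same B and Y libraries, these shares are not read against those backgrounds. The libraries of B, R and Y formed 3 separate steps, with R in the middle, for 912 higher and 750 lower clusters. The share over all tested clusters was not taken for these steps, so nothing is read from the count. R lay wholly beyond Y for 169 higher and 5 lower clusters.

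R was also placed between Y and B libraries that had no part in choosing the clusters. For each of the 9 pairs of 1 Y and 1 B library, clusters were called without both, and the differences of R from the left-out B library were summed over them and divided by the summed differences of the left-out Y library from it. The result lay between 0.542 and 0.744 for higher clusters and between 0.501 and 0.699 for lower clusters. The lowest values came with B replicate 1 as the left-out library, with means over 3 pairs of 0.595 for higher and 0.509 for lower clusters, against means over 6 pairs of 0.697 and 0.679 with B replicate 2 or 3. In clusters with a mean of at least 10 TPM over the 4 libraries kept, the range was 0.700 to 0.851 for higher and 0.470 to 0.560 for lower clusters, so R stood nearer to Y where Y was high and about midway where Y was low.

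G and P fell on either side of R on this scale. Over the higher clusters the median position was 0.772 for G and 0.006 for P, and over the lower clusters it was 1.00 for G and 0.534 for P. G was with Y for 4389 of the 6184 clusters and P was with B for 3881. P thus sat at the B level for most clusters high in Y, at 83.7% with B. It was spread over the scale for those low in Y, at 35.8% with B, 23.3% between and 40.9% with Y. As for R, zeros of G and P weigh here, and a 0 places them at Y in the lower clusters. Of the 2701 lower clusters, 1803, 1983 and 2271 were above 0 in P replicates 1, 2 and 3. The 86 lower clusters at 100 TPM or more held 3.37% ± 0.26 of TPM in P, 4.43% ± 0.23 in B and 1.72% ± 0.19 in Y (SD, n = 3 each).

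B replicate 1 stood apart from B replicates 2 and 3 in this comparison. Across the 81765 tested clusters, which are not independent replicates, it correlated with B replicates 2 and 3 at 0.687 and 0.690 (Pearson, log2(TPM + 1)), while those correlated with each other at 0.727. Its correlation with the R libraries was 0.736, 0.744 and 0.748 and with the Y libraries 0.675, 0.696 and 0.681. For B replicate 2 the correlations with the Y libraries were 0.605, 0.606 and 0.606, and for B replicate 3 they were 0.613, 0.610 and 0.619. B replicates 2 and 3 correlated with the R libraries at 0.676 to 0.687 and with the P libraries at 0.616 to 0.714. B replicate 1 correlated more highly than B replicates 2 and 3 with each G and P library too. With G replicates 1, 2 and 3 it stood at 0.664, 0.640 and 0.616, against 0.588 to 0.614 for B replicates 2 and 3. With P replicates 1 and 2 it stood at 0.671 and 0.695, against 0.616 to 0.654. Its highest correlation was with P replicate 3. The higher correlation of B replicate 1 was thus not limited to the R and Y libraries.

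To place each library on clusters it had no part in choosing, the model was fitted without it, and its level was then set on the scale from the mean of the other 2 libraries of its period (0) to the mean of the opposite period (1). Fits without B replicate 1 called 9619 of 106138 clusters, those without B replicate 2 called 4441 of 104255 and those without B replicate 3 called 4830 of 105238, with a filter of at least 1 TPM in at least 2 of the 5 libraries kept. B replicate 1 had a median position of 0.491, B replicate 2 of 0.074 and B replicate 3 of 0.112. B replicate 1 was nearer to Y than to the other B libraries for 4750 clusters, or 49.4%, against 27.2% for B replicate 2 and 29.1% for B replicate 3. For comparison, the Y libraries placed the same way toward B had medians of 0.052, 0.073 and 0.155 for replicates 1, 2 and 3. The 9619 clusters include 2207 listed at 0 in all Y libraries, and B replicate 1 was at 0 for 1475 of these, which places it at 1. With a mean of at least 10 TPM over the libraries kept, the medians were 0.322, 0 and 0 for B replicates 1, 2 and 3. The shares nearer to Y were then 32.2%, 6.61% and 8.17%.

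The gap between B replicate 1 and its companions was wide for clusters high in Y. There its median position was 0.350, and the median was 0 for both B replicate 2 and B replicate 3. In clusters with a mean of at least 10 TPM over the libraries kept, a class added after the data were seen, the medians were 0.363 for B replicate 1, -0.015 for B replicate 2 and -0.082 for B replicate 3. B replicate 1 was nearer to Y for 34.2% of those 2022 clusters, against 4.84% of 1116 for B replicate 2 and 5.42% of 1144 for B replicate 3. R on the clusters used for B replicate 1 had a median of 0.834, so B replicate 1 remained far below R there.

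For clusters low in Y the B libraries differed less in the abundant class. Over all of them the medians were 0.723 for B replicate 1, 0.307 for B replicate 2 and 0.396 for B replicate 3, and with a mean of at least 10 TPM they were 0.199, 0.027 and 0.131. Clusters listed at 0 in all Y libraries weigh here. Without B replicate 1 there were 2207 of them among the calls, and B replicate 1 was itself at 0 for 1475, or 66.8%. For B replicate 2 this was 689 of 1103, or 62.5%, and for B replicate 3 it was 762 of 1207, or 63.1%, so the 3 B libraries were alike in this share. In the opposite case B replicate 1 had the largest share, with the clusters called separately for each library. Of 1368 clusters high in Y and at 0 in both B replicate 2 and B replicate 3, B replicate 1 had a value above 0 for 742, or 54.2%. The same share was 24.3% of 573 for B replicate 2 and 22.9% of 595 for B replicate 3. B replicate 1 also had the most clusters above 0 TPM in the whole table, 176229 against 166597 and 161544 for B replicates 2 and 3. How far detection goes with the larger share was not tested.

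**Figure D5:**
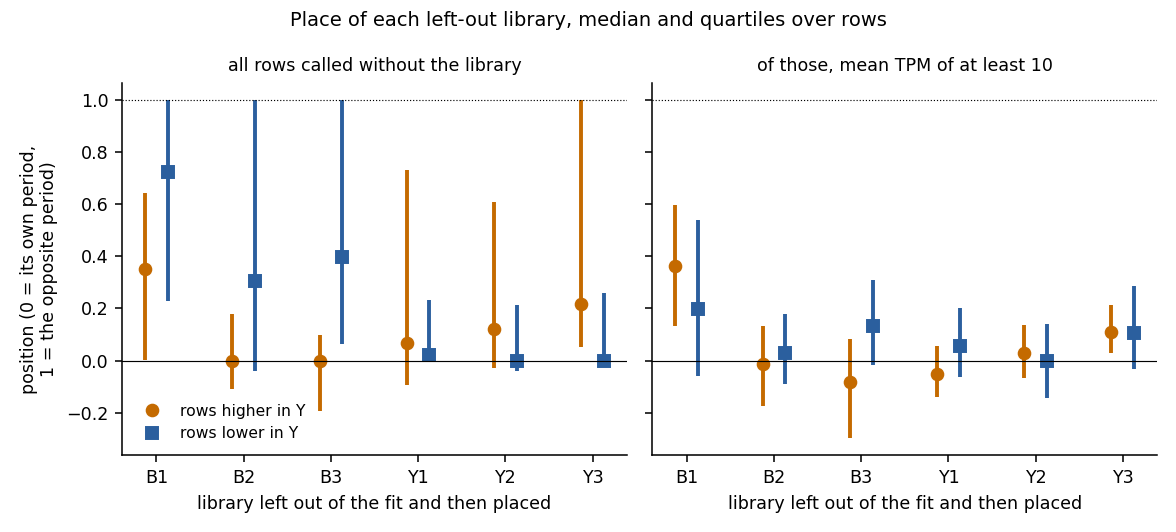
Position of each Y and B library on transcript clusters called without it, from the mean of the other 2 libraries of its period (0) to the mean of the opposite period (1), with markers for medians and bars for quartiles over clusters, for clusters higher (circles) and lower (squares) in Y. Left, all such clusters; right, those with a mean of at least 10 TPM, where B1 has medians of 0.363 and 0.199 and the other 5 libraries lie between -0.082 and 0.131.

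Left-out libraries also show how far a difference seen in some libraries was found again in others. Over the 9 pairs, between 3993 and 9217 clusters were called without 1 Y and 1 B library, and 59.8% to 65.1% of them had a difference in the same direction between the 2 libraries left out. A further 23.8% to 29.3% were listed at 0 in both left-out libraries, and 6.91% to 15.5% had the opposite direction. The filter here was at least 1 TPM in at least 2 of the 4 libraries kept, so a cluster could enter through a single period. The shares over all called clusters therefore hold for that filter only. In clusters with a mean of at least 10 TPM over the 4 libraries kept, 84.0% to 91.8% had the same direction and 1.43% to 9.21% the opposite one. Of such clusters higher in Y, 88.0% to 94.8% kept their direction, 2.10% to 4.99% were at 0 in both left-out libraries and 1.17% to 8.78% had the opposite direction. Of those lower in Y, 75.9% to 87.8% kept it, 9.29% to 15.9% were at 0 in both and 1.85% to 10.1% had the opposite direction.

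The size was smaller in the left-out libraries. The median difference on the log2(TPM + 1) scale, in the direction of the call, was 1.95 to 2.09 in the fits and 0.46 to 1.19 in the libraries left out. At 10 TPM or more it was 2.00 to 2.19 and 1.03 to 1.99. With B replicate 1 left out, 60.9% of all such clusters kept their direction on average over 3 pairs, and 64.1% over the 6 pairs with B replicate 2 or 3 left out, and at 10 TPM or more these means were 86.1% and 91.5%. These fits use 2 libraries a side, so they describe calls made with fewer libraries than the 6184.

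The prefix 64249, which most of the table shares, was carried by 80815 of the 81765 tested clusters, or 98.8%, and by 6101 of the 6184 called ones, or 98.7%. Of the 950 tested clusters with other prefixes, 83 were called, or 8.74%, and 28 of these 83 were higher in Y, or 33.7%. Among clusters with the common prefix 7.55% were called, and 3455 of these 6101 were higher in Y, or 56.6%. Neither difference was tested.

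The number of calls depended on single libraries of the pair. Without B replicate 1 it was 6498, and 4871 of these were among the 6184. It was 3558 without B replicate 2 and 3723 without B replicate 3. Without Y replicates 1, 2 and 3 it was 3490, 3503 and 3946. The higher clusters outnumbered the lower ones in each of these fits, which kept the filter on all 6 libraries. With the filter on the libraries kept, the lower clusters outnumbered the higher ones in each fit without a B library. That filter lets a cluster enter through the 2 kept libraries of a single period, so nothing is read from this balance. Of the 5301 lower clusters without B replicate 1, 2207 were listed at 0 in all Y libraries. Library weights estimated by limma, which were 0.621 for B replicate 1, 1.14 for B replicate 2 and 0.872 for B replicate 3, gave 8583 calls that included 6115 of the 6184.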

How the data were processed

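The unit of the deposited table is TPM, judged by its name and by column sums of about 1000000. How reads were assembled, aligned and quantified is not given in the sources used here. GRCm38 and mm10, which are mouse builds, stand in the submitters' processing notes. All 15 columns matched a library title, and no 2 libraries were identical. TPM keeps no depth, so no count model, interval or floor is given. Clusters with a TPM of at least 1 in at least 3 of the 6 Y and B libraries were tested on log2(TPM + 1) with limma 3.58.1 (R 4.3.3), 5 period means over 15 libraries, 10 residual degrees of freedom, a variance prior following mean level, and Benjamini-Hochberg adjustment at 0.05. Python 3.11.15, pandas 2.3.3, NumPy 2.4.6 and SciPy 1.17.1 served for the rest. The fit was also run on simulated normal noise, with changes set in 200 clusters, all with a mean of at least 10 TPM. That run does not cover changes in clusters at lower levels, and nothing is concluded from it here. Named clusters were, per direction, that with the largest log2 difference at 1 TPM or more in all 6 libraries and that with the largest difference of mean TPM. The libraries, filter and classes were chosen with earlier results of these data known. Genes, pathways, sequences and positions were not analysed here.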

Additional observations from a re-analysis of the deposited data

How the results depend on the processing

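Depth is unknown, and for low clusters the log2(TPM + 1) scale understates differences. Calls numbered 3156 (1855 higher, 1301 lower) with no filter and 2985 (2019 and 966) where the mean reached 10 TPM. A pseudocount of 0.1 gave 4508 calls with 1799 lower. Median-ratio scaling gave 5782, no variance trend 5858, the fit on 9 libraries 8233, and the wider filter over 15 libraries 4372. Leaving out each of the 15 libraries gave 3490 to 7142 calls, 1950 to 4010 higher and 1460 to 3132 lower. More were higher than lower in every one of these settings, where the leave-outs kept the filter on all 6 libraries. With a filter on the libraries kept, the balance turned without a B library. There 4318 were higher and 5301 lower without B replicate 1, 2119 and 2322 without B replicate 2, and 2126 and 2704 without B replicate 3. Without Y replicates 1, 2 and 3 the counts were 2541 and 1510, 2543 and 1434, and 3145 and 1595. Because that filter lets a cluster enter through the 2 kept libraries of a single period, nothing is read from the turn.

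Median R positions for higher and lower clusters were 0.777 and 0.548 with a pseudocount of 0.1, and 0.783 and 0.544 where the mean reached 10 TPM. The higher median was 0.740 with the wider filter and 0.676 with 6 libraries alone. The lower median was 0.696 with no filter and 0.620 with 9 libraries. Leaving out each of the 15 libraries gave medians of 0.705 to 0.764 for higher and 0.619 to 0.692 for lower clusters. The positions of summed differences in the 9 left-out pairs, another measure, were 0.542 to 0.744 and 0.501 to 0.699. R was with Y for 54.4% and with B for 19.2% of clusters with no filter, 54.6% and 13.4% where the mean reached 10 TPM, and 41.5% and 12.7% with limits of 0.25 and 0.75. With Y was 48.5% with 6 libraries, with B 19.4% with 9. By limma calls of R against each period, R differed from B alone for 33.4%, from Y alone for 3.78%, from both for 0.21% and from neither for 62.6%. Leave-outs gave 50.2% to 58.3% with Y and 14.1% to 18.7% with B.

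The difference in clusters above 0 TPM, Y minus B, was 4072, but -8643 at 1 TPM or more and -304 without Y replicate 2, with a highest value of 11638 over leave-outs. The difference in tested share ranged from 5.54 to 9.54 and that in the top 100 share from 0.580 to 0.930 percentage points. In left-out pairs of libraries, 63.0% of called clusters kept their direction on average, and 89.7% where the mean reached 10 TPM, a limit chosen after seeing the data. Both include clusters that could pass the filter through a single period. The cause of these changes was not tested. With the replicate number as a block, 5468 clusters were called. Deviations of same-numbered Y and B libraries correlated at -0.035, -0.015 and 0.024. With 3 libraries a side these values cannot settle whether same-numbered libraries share more than a number. Of the Y libraries, replicate 3 alone correlated best with its own number.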
